A study of Homo sapiens with 21 samples.

Results

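The D-type cyclins CCND1, CCND2 and CCND3, the kinases CDK4 and CDK6 that they activate, the inhibitors CDKN1A, CDKN1B, CDKN2A and CDKN2C, and their substrate RB1 were followed through chromatin accessibility in neuroblastoma cells in which BAF subunits were silenced. The members were all accessible sites to which the deposited annotation had given the name of 1 of these 10 genes, that is, the gene with the closest transcription start site (TSS). This gave 55 of 367900 sites, of which CCND2 had 21, CDK6 14, CCND1 5, CCND3 4, CDKN1B 3, RB1 3 and CDKN2A 2, and CDK4, CDKN1A and CDKN2C had 1 each. A site named for a gene need not regulate it, and a site that does regulate it may carry another name.

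Accessibility was assayed by ATAC-seq, where reads accumulate at DNA that the Tn5 transposase can reach, in SK-N-BE(2), an established human neuroblastoma line. All cells were transduced with lentivirus and collected after 72 h. The 7 groups of 3 libraries were Control (a non-silencing shRNA in the study's methods), 2 ARID1A shRNAs (shARID1A.2, shARID1A.4), 2 ARID1B shRNAs (shARID1B.2, shARID1B.3) and 2 combinations (shARID1A/B.2.3, shARID1A/B.4.2). The numbers in the combinations' names match those of the single shRNAs, although the labels do not state in words which hairpins were joined. ARID1A and ARID1B are alternative subunits that hold the BAF remodelling complex together. A single cell line was studied, the labels describe the 3 libraries of a group as biological triplicates, and accessibility does not measure how far an shRNA lowered its target.

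D-type cyclins are made in response to growth signals and bind CDK4 or CDK6, and the active kinases phosphorylate RB1, which then releases E2F factors so that genes for DNA synthesis are transcribed. CDKN2A (p16) and CDKN2C (p18) bind CDK4 and CDK6 directly, whereas CDKN1A (p21) and CDKN1B (p27) bind cyclin and kinase complexes, in particular those of CDK2. High CCND1 levels and gains of CDK4 are known features of neuroblastoma, where the pathway bears on whether cells leave the cell cycle.

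Libraries held 16140029 to 44472230 reads in sites, and these were expressed as CPM, counts scaled to a common library total, which are not divided by site length, so that levels are compared only within a site. Values with ± are the mean and SD of a group's 3 libraries. A change is the log2 ratio of 2 group levels from 1 edgeR model over all 7 groups, with its standard error (SE). Lower sites are described as closed and higher ones as opened where the false discovery rate (FDR, the p-value adjusted over all tested sites) was under 0.01. Of the 55 sites, 52 passed the filter on low counts, and the 3 that did not were distal CCND2 sites with at most 0.534 CPM in any library. The share of reads in promoter sites was 20.0% to 20.6% in Control, 23.4% to 24.0% with shARID1A/B.2.3 and 24.8% to 25.1% for shARID1A/B.4.2. With the single shRNAs it was 21.7% to 24.0% (shARID1A.2), 22.9% to 24.1% (shARID1A.4), 20.9% to 21.5% (shARID1B.2) and 21.8% to 23.4% (shARID1B.3). The part of this shift in the promoter results below was not tested. Control replicate 2 and shARID1A/B.2.3 replicate 2 stood apart from the other libraries of their groups (chi-square per degree of freedom 1.84 to 2.05 and 2.23 to 2.51, against 1.09 between the remaining pair in each group). At the CDKN1A site and the CCND1 promoter, exon 3, intron 4 and 3.35 kb upstream sites, replicate 2 was the lowest library of Control and of each combination. At the site nearest the TSS of each of 8 adrenergic neuroblastoma markers, Control accessibility ran from 2.43 CPM (TH) to 43.9 CPM (HAND2). For 6 genes of other lineages it ran from 0.178 CPM (ALB) to 12.7 CPM (MYOD1), so that these ranges overlap. Some of these sites are not at the start, with distances of -8831 bases for ALB and -5125 for ISL1. As CPM is not divided by site length, the ranges are no test of cell type.

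The sequences of the sites on which the results turn are given first, from GRCh38. For 4 sites this is the middle of the site on the plus strand, and for CDK4 it is the RefSeq promoter (GRCh38.p14, minus strand), which lies inside the only CDK4 site. Capitals mark CACGTG (the E-box that MYC proteins bind) in the CDK4 promoter and the CCND1 intron, TTTNNCGC (E2F) and GGGCGG (SP/KLF) upstream of CCND1, and TGANTCA (AP-1) in the CDKN1A intron, each searched on both strands with overlaps between motifs allowed. Other matches are left unmarked. The CDK4 promoter also held GGGCGG 3 times and CAGCTG, another searched motif, 2 times, and the CDKN1A window held GGGCGG 2 times.
CDK4 promoter, chr12:57752261-57752560, opened: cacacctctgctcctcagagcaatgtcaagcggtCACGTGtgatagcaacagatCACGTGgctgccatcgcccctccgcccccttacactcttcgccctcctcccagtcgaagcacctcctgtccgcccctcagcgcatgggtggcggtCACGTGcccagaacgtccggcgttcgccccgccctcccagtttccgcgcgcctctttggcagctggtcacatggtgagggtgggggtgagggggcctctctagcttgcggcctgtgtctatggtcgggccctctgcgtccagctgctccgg
CCND1 upstream of the gene, chr11:69640891-69641155, opened: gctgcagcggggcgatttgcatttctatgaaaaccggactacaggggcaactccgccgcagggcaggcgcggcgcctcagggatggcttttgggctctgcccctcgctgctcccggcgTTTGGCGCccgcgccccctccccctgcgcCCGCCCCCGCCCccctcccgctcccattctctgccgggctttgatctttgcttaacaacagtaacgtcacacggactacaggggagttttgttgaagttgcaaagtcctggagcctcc
CCND1 intron 4, chr11:69650107-69650406, closed: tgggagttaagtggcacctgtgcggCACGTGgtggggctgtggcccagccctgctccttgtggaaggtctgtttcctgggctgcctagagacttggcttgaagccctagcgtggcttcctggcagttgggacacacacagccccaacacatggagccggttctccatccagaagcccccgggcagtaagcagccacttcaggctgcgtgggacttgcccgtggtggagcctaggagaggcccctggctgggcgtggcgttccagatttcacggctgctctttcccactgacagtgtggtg
CDK6 intron 1, 52.2 kb from the TSS, chr7:92781629-92781928, closed: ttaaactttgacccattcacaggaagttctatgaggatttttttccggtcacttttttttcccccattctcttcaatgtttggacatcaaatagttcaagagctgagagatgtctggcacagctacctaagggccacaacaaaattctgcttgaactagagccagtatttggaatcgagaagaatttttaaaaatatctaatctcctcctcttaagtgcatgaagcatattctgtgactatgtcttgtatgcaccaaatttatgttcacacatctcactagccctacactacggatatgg
CDKN1A intron 1, chr6:36679434-36679733, closed: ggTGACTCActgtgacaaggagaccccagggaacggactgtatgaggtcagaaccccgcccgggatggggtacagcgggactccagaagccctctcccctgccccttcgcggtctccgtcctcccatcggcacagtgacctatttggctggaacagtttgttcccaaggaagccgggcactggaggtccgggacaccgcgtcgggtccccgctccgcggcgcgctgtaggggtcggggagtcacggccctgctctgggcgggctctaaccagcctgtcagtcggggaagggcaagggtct
The CDK4 promoter held CACGTG 3 times, a motif found at least once in 7.26% of 35116 RefSeq promoters and 3 or more times in 0.094% of them. In windows of 300 bases from the middle of each site, CACGTG occurred in 4 of the 55 member sites and 4.15% of all sites. TTTNNCGC occurred in 2 member windows (2.19% of all), GGGCGG in 13 (8.95%) and TGANTCA in 5 (10.9%). Promoter sites are among the members, and of the RefSeq promoters 6.89% held TTTNNCGC, 45.0% GGGCGG and 7.71% TGANTCA. The printed CDK6 window, which has a GC content of 38.7%, held none of these or the following motifs. CAGCTG (another E-box) was in 8 member windows and 17.6% of all, AGATAA (the motif of GATA factors) in 6 and 16.9%, and CCAAT (NF-Y) in 10 and 35.5%. A match is only a string of letters in a window.

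The main comparison asked what happened at these genes when both subunits were silenced, averaging the combinations. Of the 52 tested sites, 5 closed and 6 opened, where 10.3% of all tested sites closed and 3.43% opened. In bulk libraries, fewer cells with an accessible site and lower accessibility in each cell cannot be told apart. By the deposited classes, the opened sites were promoter-TSS sites named for CCND1, CCND2, CDK6 and CDKN1B, the intron-class site of CDK4 and an intergenic site upstream of CCND1. The site named for CDKN1B lies at the promoter of APOLD1, not at that of CDKN1B. The closed sites were of the intron class, in CCND1, CDK6 (3 sites) and CDKN1A. The CDK4 and CDKN1A sites each span the promoter of their gene as well as intron 1. DESeq2 called 1 closed site, CDK6 at 52.2 kb, and 6 opened ones, with 30369 closed and 9064 opened of all 367900 sites. Its 6 opened sites were not all those of edgeR, as it did not call the intergenic site upstream of CCND1. Without Control replicate 1 a single site closed, and with Control replicate 2 and shARID1A/B.2.3 replicate 2 both left out 5 closed and 6 opened. Equal totals need not hold the same sites. Without Control replicate 2 alone, the CCND1, CCND2 and CDK6 promoter sites and the intergenic site upstream of CCND1 lost their calls. Another CDK6 site was then called as opened. The median change of the 52 sites was 0.14, against 0.03 over all tested sites. Scaling the libraries on promoter sites in place of TMM moved the median of all sites to -0.20. It left 9 members closed and 1 opened, the opened one being CDK4. Of all 357029 tested sites, 56569 closed and 2469 opened under that scaling, against 36610 and 12247 with TMM. Offsets for GC content left 4 and 6 members, and 35606 and 11913 of all tested sites. Among the 7 tested member sites of the promoter-TSS class 4 opened, that at APOLD1 included, a class in which 33.4% of all tested sites opened. Among the 29 intron-class sites 5 closed and 1 opened, and 12.0% of all intron sites closed. All 6 combination libraries lay under all 3 Control libraries at 1 member site, as at 10.8% of all tested sites, and over them at 6, as at 4.85%. Calls depend on the level of a site in these data. Of all sites under 1 CPM 0.553% opened and 3.77% closed, and at 1 to 10 CPM 2.88% and 16.5%. At 10 CPM or more 37.6% opened and 16.6% closed. Of the 52 members, 14 had a mean of 10 CPM or more, and all 6 opened members were among them. Of the 5 closed members, 4 lay at 1 to 10 CPM.

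**Figure D1:**
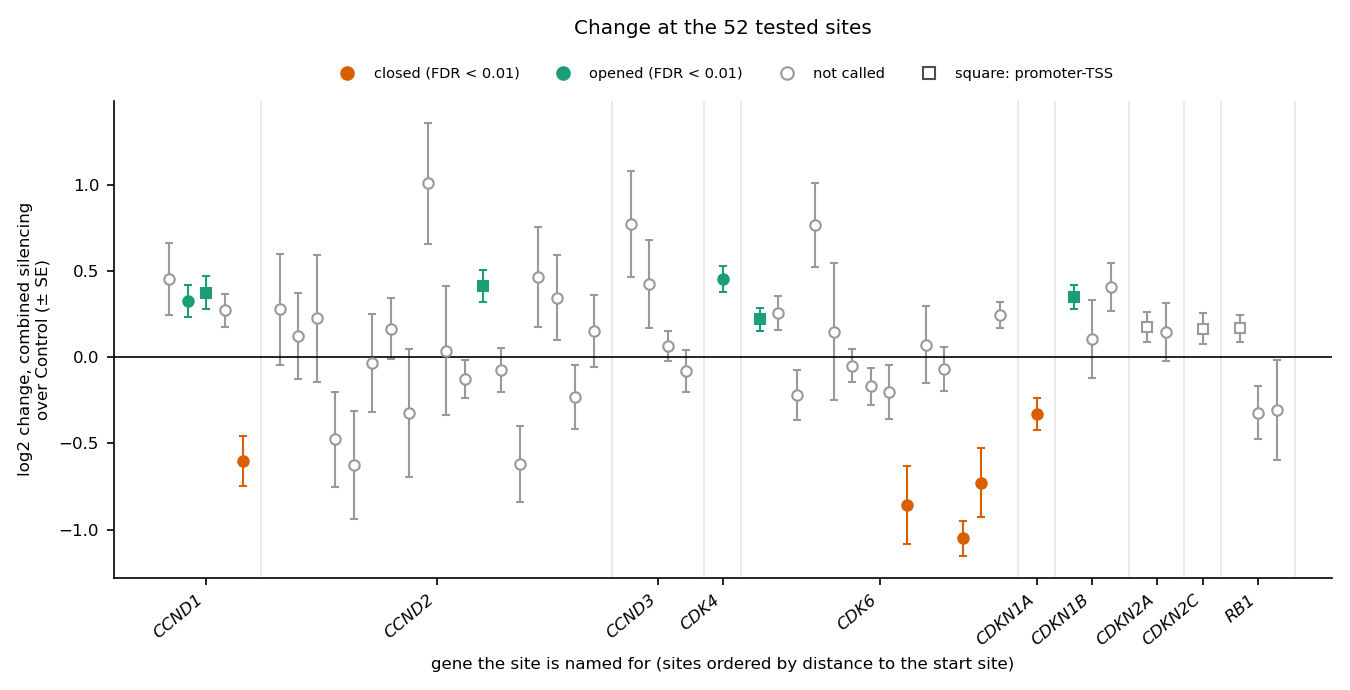
Log2 change in accessibility (vertical axis, ± SE) after combined silencing, averaged over both combinations, at the 52 tested sites, grouped by gene and ordered by distance to the TSS. Filled orange points are the 5 closed sites and filled green points the 6 opened ones, squares are promoter-TSS sites, and the lowest point is a CDK6 intron 1 site at -1.05.

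CCND1 is the cyclin most often tied to neuroblastoma. Of its 5 sites, 2 upstream ones opened, the intron 4 site closed, and the exon 3 site and the farthest upstream one were not called. The promoter site (chr11:69640558-69641525) covers the GENCODE start of CCND1, although the deposited annotation measures it 1072 bases upstream of its own reference TSS. It held 14.3, 12.0 and 14.7 CPM in the Control libraries, 19.3, 15.5 and 17.3 with shARID1A/B.2.3 and 19.0, 15.9 and 19.2 with shARID1A/B.4.2. All 6 combination values exceeded the Control values, and the averaged change was 0.38 (SE 0.10, FDR 0.0017), which became 0.32 (FDR 0.022) without Control replicate 2, the lowest Control library. The single-shRNA means ran from 15.6 CPM with shARID1B.2 to 18.4 CPM with shARID1B.3, all above the Control mean of 13.6 ± 1.47. The share of reads in promoter sites was also above Control in each of these groups.

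An intergenic site 3.35 kb upstream (chr11:69638059-69639471) also opened. It held 19.5, 14.3 and 19.2 CPM in Control, 23.8, 18.5 and 22.8 with shARID1A/B.2.3 and 23.0, 20.4 and 24.3 with shARID1A/B.4.2. The lowest combination library lay within the Control range, and the change was 0.33 (SE 0.10, FDR 0.0068). The call was lost without Control replicate 2 (0.22, FDR 0.12), shARID1A/B.2.3 replicate 1 (FDR 0.011) or shARID1A/B.4.2 replicate 3 (FDR 0.026), and by DESeq2 (FDR 0.032). The farther upstream site (chr11:69629891-69630850) had 1.24 ± 0.383 CPM in Control, and its change of 0.46 (SE 0.21, FDR 0.12) was not called.

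The CCND1 intron 4 site (chr11:69649771-69650744) held 5.73, 4.48 and 5.05 CPM in Control and 3.45, 1.46 and 2.51 with shARID1A/B.2.3, all 3 of them below Control. With shARID1A/B.4.2 it held 4.44, 4.19 and 5.33, which overlapped Control. The averaged change of -0.60 (SE 0.15, FDR 7.8e-04) thus averages unlike values: shARID1A/B.2.3 had -1.08 (SE 0.17, FDR 3.5e-07) and shARID1A/B.4.2 had -0.12 (SE 0.17, FDR 0.71). The averaged call was lost without Control replicate 1 (-0.52, FDR 0.020) or shARID1A/B.2.3 replicate 2 (-0.40, FDR 0.018), and by DESeq2 (FDR 0.064). The exon 3 site (chr11:69643009-69644778) opened with shARID1A/B.4.2 alone, with 0.06 (SE 0.11, FDR 0.76) for shARID1A/B.2.3 and 0.49 (SE 0.11, FDR 2.6e-04) for shARID1A/B.4.2. It held 13.9, 10.1 and 13.2 CPM in Control, 14.3, 11.7 and 12.8 with shARID1A/B.2.3 and 17.6, 16.1 and 18.5 with shARID1A/B.4.2, and its averaged change of 0.27 (SE 0.09, FDR 0.027) was not called.

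CCND2, a cyclin that MYC proteins induce, had the most sites, and 1 of its 18 tested sites was called. This was the promoter site (chr12:4270971-4274879), with 12.3, 9.33 and 11.5 CPM in Control, 16.8, 13.7 and 16.1 with shARID1A/B.2.3 and 14.4, 13.7 and 13.7 with shARID1A/B.4.2. The groups did not overlap, and the change was 0.41 (SE 0.09, FDR 3.4e-04), or 0.33 (FDR 0.013) without Control replicate 2. The other 17 tested sites changed by -0.63 to 1.01 without a call, and 14 of them held less than 2 CPM in every group's mean. The highest of these changes, 1.01 (SE 0.35, FDR 0.029), was at an intergenic site 73.4 kb upstream with 0.316 ± 0.170 CPM in Control, and it passed for shARID1A/B.2.3 alone (1.31, SE 0.36, FDR 0.0045).

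CCND3, the third D-type cyclin, had 4 tested sites, of which edgeR called 0 in this comparison (1 at an unadjusted p under 0.05, and 0 called by DESeq2). Its site at exon 1 (chr6:41940693-41942353) held 18.9 ± 1.96 CPM in Control, 18.2 ± 2.34 with shARID1A/B.2.3 and 21.7 ± 0.858 for shARID1A/B.4.2, and the change was 0.07 (SE 0.09, FDR 0.67). Of the other 3, the intron 4 site changed by -0.08 (SE 0.12, FDR 0.73), and the changes of the intron 1 sites were 0.43 (SE 0.25, FDR 0.27) and 0.77 (SE 0.31, FDR 0.068), at levels of at most 1.44 CPM in any library.

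CDK4 had 1 site, which spans its promoter and intron 1 (chr12:57751411-57752935). It held 37.8, 37.6 and 36.1 CPM in Control, 46.7, 43.7 and 43.3 with shARID1A/B.2.3 and 58.5, 57.6 and 59.1 with shARID1A/B.4.2. The combinations lay above Control without overlap and did not overlap each other. The averaged change was 0.46 (SE 0.07, FDR 5.1e-07), from 0.26 (SE 0.08, FDR 0.017) with shARID1A/B.2.3 and 0.65 (SE 0.08, FDR 1.2e-09) with shARID1A/B.4.2. Means of the single-shRNA groups were 43.4 ± 5.95 CPM (shARID1A.2), 50.7 ± 3.80 CPM (shARID1A.4), 45.0 ± 1.38 CPM (shARID1B.2) and 45.0 ± 3.25 CPM (shARID1B.3), so that every silenced group had a higher mean than Control. Every silenced group also had a higher share of reads in promoter sites, and the part of that shift in these means was not tested.

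**Figure D2:**
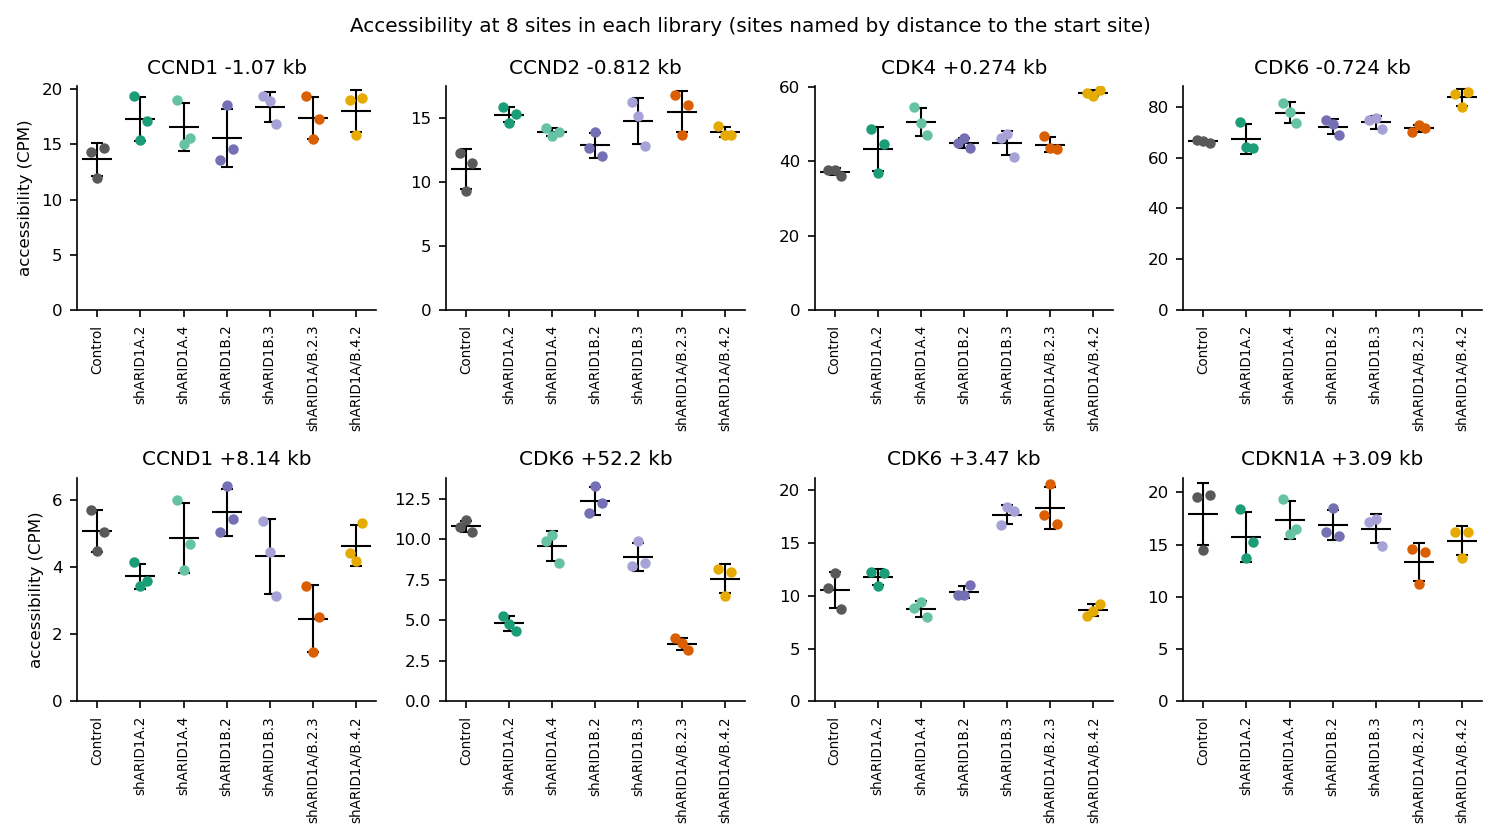
Accessibility in CPM (vertical axes, from 0) at 8 sites in each of the 21 libraries, with coloured points for libraries and black bars for the group mean ± SD (n = 3). In the upper row, promoter sites of CCND1, CCND2 and CDK6 and the CDK4 site sit above Control in all combination libraries. In the lower row, the CDK6 site at 52.2 kb falls from 10.8 CPM in Control to 3.56 CPM with shARID1A/B.2.3, while the CDK6 site at 3.47 kb is at 17.7 CPM with shARID1B.3 and 18.3 CPM with shARID1A/B.2.3.

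CDK6, the kinase that pairs with D-type cyclins beside CDK4, had 14 tested sites, with 3 closed and 1 opened. The opened one was the long promoter site (chr7:92832311-92837065), with 67.1, 66.4 and 65.9 CPM in Control, 70.1, 73.0 and 71.8 with shARID1A/B.2.3 and 85.2, 80.1 and 86.0 with shARID1A/B.4.2. The groups did not overlap, and the change of 0.22 (SE 0.07, FDR 0.0097) was the smallest of the 6 called rises and turned to -0.017 when libraries were scaled on promoter sites. It also lost its call when any 1 Control library or shARID1A/B.4.2 replicate 3 was left out (FDR 0.012 to 0.053).

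The 3 closed CDK6 sites lay in intron 1, 42.6 to 55.9 kb from the annotated TSS. The site at 52.2 kb (chr7:92781024-92782535) was the member with the largest fall. It held 10.8, 11.2 and 10.5 CPM in Control, 3.91, 3.60 and 3.17 with shARID1A/B.2.3 and 8.20, 6.53 and 7.98 with shARID1A/B.4.2, so that all combination libraries were below all Control libraries. It was the only member of which this was true, and the averaged change was -1.05 (SE 0.10, FDR 4.4e-15). It closed with shARID1A/B.2.3 (-1.59, SE 0.12, FDR 1.1e-19) and with shARID1A/B.4.2 (-0.51, SE 0.12, FDR 4.5e-04).

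The other 2 closed sites were weaker. At 55.9 kb (chr7:92777891-92778258) Control libraries held 1.97, 1.23 and 1.52 CPM, shARID1A/B.2.3 0.624, 0.906 and 0.659 and shARID1A/B.4.2 1.08, 1.15 and 1.30, a change of -0.73 (SE 0.20, FDR 0.0043). At 42.6 kb (chr7:92791050-92791732) they held 1.44, 1.11 and 1.403, 0.460, 0.674 and 0.791 and 0.538, 1.20 and 0.742 CPM, a change of -0.86 (SE 0.22, FDR 0.0023). Both were called with shARID1A/B.2.3 alone and missed the threshold with shARID1A/B.4.2 alone (FDR 0.27 and 0.075). The averaged call was lost at 55.9 kb when any 1 of 6 of the 9 compared libraries was left out (FDR 0.012 to 0.10, the highest without Control replicate 1) and at 42.6 kb when any 1 of 4 was (FDR 0.012 to 0.023). DESeq2 called neither site (FDR 0.017 and 0.011). Sites between the closed ones, at 45.0 and 47.6 kb, changed by 0.07 (SE 0.22, FDR 0.87) and -0.07 (SE 0.13, FDR 0.78), and the well accessible site at 64.5 kb (chr7:92768573-92770271) by 0.25 (SE 0.08, FDR 0.012).

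**Figure D3:**
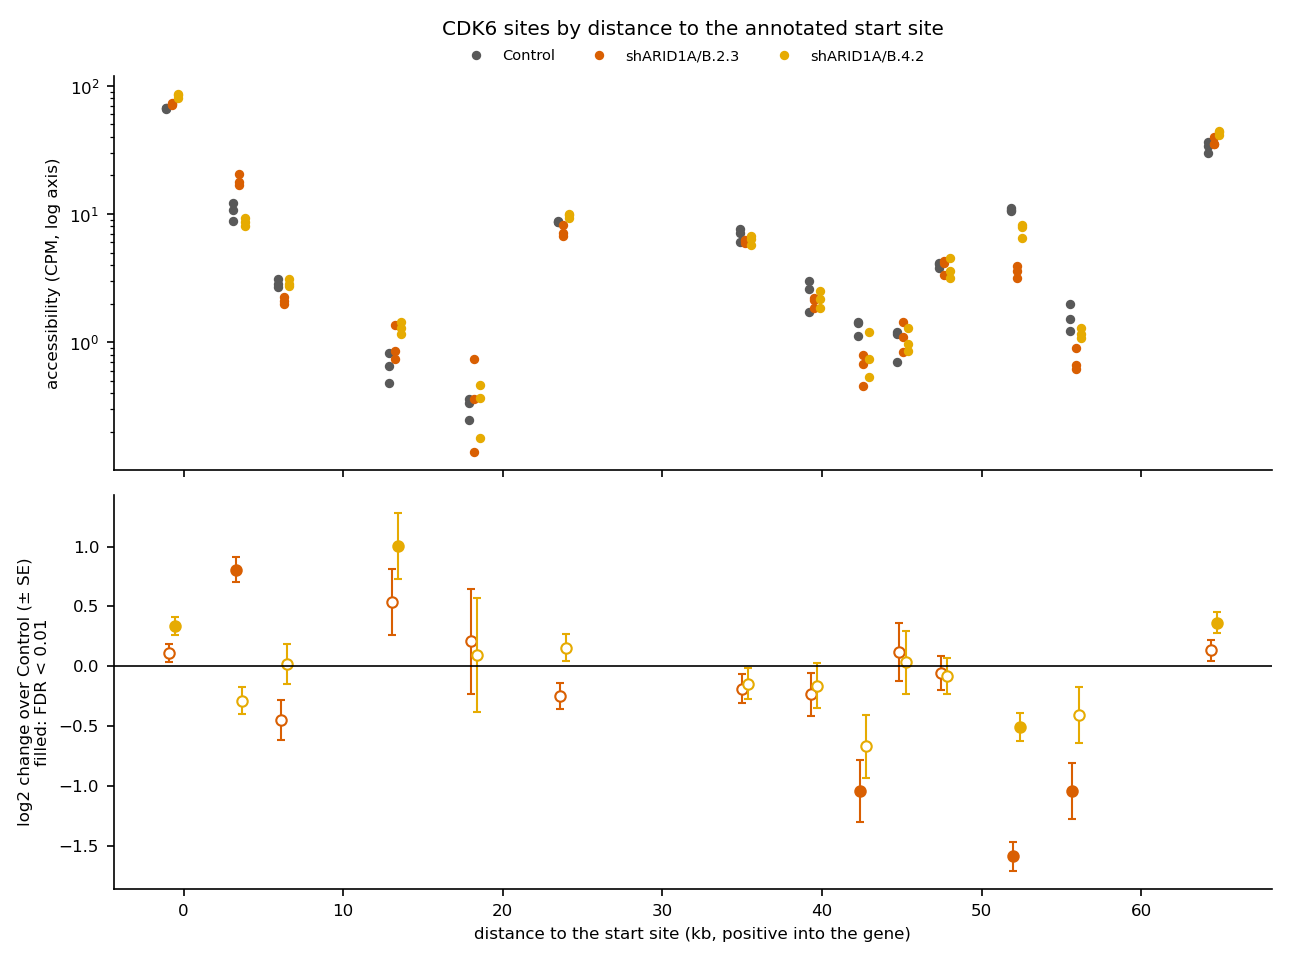
The 14 CDK6 sites by distance to the annotated TSS (horizontal axis, kb). The upper panel gives CPM on a log axis in each library of Control and both combinations, and the lower panel gives the log2 change of each combination over Control (± SE, filled where FDR is under 0.01), with -1.59 and -0.51 at 52.2 kb and 0.81 and -0.29 at 3.47 kb.

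Many sites inside CDK6 carry another gene's name, because a small RNA gene and a neighbour have closer starts. The gene body holds 59 sites, of which 14 are named CDK6 and 45 are named RNU6-10P or FAM133B. Of the 44 tested among these 45, 6 closed and 1 opened. Of all tested sites 10.3% closed and 3.43% opened, and of all tested intron sites 12.0% and 2.09%. A site in intron 2 (chr7:92754554-92755867), singled out after its values were seen, held 21.4 ± 1.74 CPM in Control. It fell to 10.1 ± 0.911 and 15.6 ± 0.409 CPM in the combinations shARID1A/B.2.3 and shARID1A/B.4.2, a change of -0.76 (SE 0.08, FDR 8.3e-13). Such sites are not counted among the members.

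Among the inhibitors, 1 of 7 tested sites closed and 1 opened. CDKN1A, which encodes p21, had 1 site, over its promoter and intron 1 (chr6:36678339-36680830), with 19.6, 14.5 and 19.8 CPM in Control, 14.5, 11.2 and 14.3 with shARID1A/B.2.3 and 16.2, 13.8 and 16.2 with shARID1A/B.4.2. The combination values overlapped the lowest Control library, replicate 2, and the change was -0.33 (SE 0.09, FDR 0.0064). It passed with shARID1A/B.2.3 (-0.43, SE 0.11, FDR 0.0015) and not with shARID1A/B.4.2 (-0.22, SE 0.11, FDR 0.19). The averaged call was lost when any 1 of 6 of the 9 compared libraries was left out (FDR 0.010 to 0.11, the highest without Control replicate 3), and by DESeq2 (FDR 0.037).

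The opened inhibitor site carried the name of CDKN1B (p27) but lies 7.57 kb past its start, at the promoter of APOLD1 (chr12:12723752-12726131). It held 46.4, 45.0 and 47.5 CPM in Control, 60.2, 59.2 and 56.5 with shARID1A/B.2.3 and 59.6, 59.5 and 59.4 with shARID1A/B.4.2. The groups did not overlap, and the change was 0.35 (SE 0.07, FDR 6.2e-05), near the values of either combination (0.34 (SE 0.08, FDR 7.6e-04) and 0.36 (SE 0.08, FDR 4.3e-04)). Over 19 alternatives the averaged change ran from 0.07 to 0.39, and 3 of them lost the call (edgeR or DESeq2 FDR up to 0.39). The site at the start of CDKN1B itself (chr12:12714484-12718275) is named LOC101929220 in the annotation and so is no member. It rose from 38.5 ± 2.94 CPM to 46.1 ± 2.89 and 54.1 ± 2.37 CPM, with 0.38 (SE 0.07, FDR 1.6e-05). The remaining CDKN1B sites changed by 0.11 (SE 0.23, FDR 0.81) and 0.41 (SE 0.14, FDR 0.025), and at the latter all combination libraries were above all Control libraries although the FDR missed the threshold.

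CDKN2A and CDKN2C, whose products block CDK4 and CDK6, had 3 tested sites, of which edgeR called 0 in this comparison (1 at an unadjusted p under 0.05, and 0 called by DESeq2). The promoter site of p16 (chr9:21974313-21976259) held 15.5 ± 0.896 CPM in Control, 16.0 ± 1.48 with shARID1A/B.2.3 and 19.0 ± 0.743 for shARID1A/B.4.2, a change of 0.18 (SE 0.09, FDR 0.15). The exon 2 site (chr9:21970813-21971217) changed by 0.15 (SE 0.17, FDR 0.62). The CDKN2C promoter (chr1:50968045-50970436) held 17.9 ± 2.40, 19.7 ± 3.13 and 20.6 ± 1.36 CPM in the same order, a change of 0.17 (SE 0.09, FDR 0.21).

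RB1, the substrate of these kinases, had 3 tested sites, of which edgeR called 0 (2 at an unadjusted p under 0.05, and 0 called by DESeq2). The site at its start (chr13:48303095-48304696) held 23.2, 22.8 and 22.6 CPM in Control, 26.4, 27.6 and 23.1 with shARID1A/B.2.3 and 24.1, 26.5 and 26.1 with shARID1A/B.4.2, a change of 0.17 (SE 0.08, FDR 0.14). A single combination library lay within the Control range. The intron 2 sites changed by -0.32 (SE 0.15, FDR 0.14) and -0.31 (SE 0.29, FDR 0.54). Of 3 tested sites inside RB1 that carry another name 1 closed, a site named LPAR6 (chr13:48437195-48437839) with 0.864 ± 0.157 CPM in Control and a change of -0.88 (SE 0.26, FDR 0.0083).

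Each combination was then set against Control by itself, and the members' calls differed between them. With shARID1A/B.2.3, 5 member sites closed and 4 opened (10.4% and 2.85% of all tested sites). With shARID1A/B.4.2, 1 closed and 7 opened (7.37% and 3.97%). Scaled on promoter sites these became 7 and 2 with shARID1A/B.2.3 (45951 and 3584 of all 357029 tested sites). With shARID1A/B.4.2 they became 9 and 1 (52684 and 2873 of all tested sites). GC offsets gave 5 and 4 (37130 and 12270) with shARID1A/B.2.3 and 3 and 3 (25130 and 12333) with shARID1A/B.4.2. Both comparisons use the same Control libraries. The members opened with shARID1A/B.4.2 alone included the CDK6 sites at 64.5 kb (0.36, SE 0.09, FDR 9.3e-04) and 13.2 kb (1.004, SE 0.28, FDR 0.0046).

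The difference between the combinations was tested directly. Of the 52 sites, 5 were lower and 2 higher with shARID1A/B.2.3 than with shARID1A/B.4.2 (3.79% and 1.43% of all tested sites). Lower were the CDK6 sites at 52.2 kb (-1.08, SE 0.13, FDR 2.1e-10) and 23.8 kb (-0.40, SE 0.11, FDR 0.0095), the CCND1 intron 4 site (-0.96, SE 0.18, FDR 3.3e-05) and exon 3 site (-0.43, SE 0.10, FDR 0.0024), and the CDK4 site (-0.39, SE 0.08, FDR 4.0e-04). Higher were the CDK6 site at 3.47 kb (1.09, SE 0.11, FDR 1.6e-13) and an intergenic CCND2 site 166 kb upstream (1.44, SE 0.34, FDR 0.0016) with at most 1.23 CPM in any library. Scaled on promoter sites, 2 were lower and 3 higher (6547 and 10505 of all 357029 tested sites). Among these calls, that at 23.8 kb was lost when any 1 of 5 of the 6 libraries was left out (FDR 0.020 to 0.042), that in CCND1 exon 3 when any 1 of 3 was (FDR 0.011 to 0.033), that in CCND1 intron 4 without shARID1A/B.2.3 replicate 2 (-0.63, FDR 0.010) and that 166 kb upstream of CCND2 without shARID1A/B.4.2 replicate 1 (0.97, FDR 0.083).

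The CDK6 site at 3.47 kb rose with shARID1A/B.2.3 and was not called with shARID1A/B.4.2. It held 10.7, 12.2 and 8.74 CPM in Control, 17.7, 20.6 and 16.7 with shARID1A/B.2.3 and 8.06, 8.61 and 9.23 with shARID1A/B.4.2. The libraries of shARID1A/B.2.3 were all above the other groups just named, with a change of 0.81 (SE 0.11, FDR 9.7e-10) over Control, whereas shARID1A/B.4.2 overlapped Control (-0.29, SE 0.12, FDR 0.079). Averaged, the change was 0.26 (SE 0.10, FDR 0.046) and not called, although without Control replicate 2 it was (0.41, FDR 0.0029).

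The single shRNAs were compared in the same model, with the contrasts between the shRNAs of a gene added after the values had been seen. At the CDK6 site at 52.2 kb, shARID1A.2 gave 5.30, 4.79 and 4.36 CPM and shARID1A.4 9.93, 10.3 and 8.52 CPM, which do not overlap and differed by -1.0003 (SE 0.13, FDR 3.2e-09). With the ARID1B shRNAs it held 11.6, 13.3 and 12.2 CPM (shARID1B.2) and 8.34, 9.88 and 8.53 CPM (shARID1B.3), and the log2 ratio of shARID1B.3 to shARID1B.2 was -0.47 (SE 0.11, FDR 0.0013). The lowest levels at this site were thus those of shARID1A.2 and of the combination whose name carries that number.

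At the CDK6 site at 3.47 kb, shARID1B.3 gave 16.7, 18.4 and 18.0 CPM and shARID1B.2 10.04, 10.1 and 11.0 CPM, a difference of 0.76 (SE 0.11, FDR 2.7e-08) without overlap. The ARID1A shRNAs gave 11.8 ± 0.773 CPM (shARID1A.2) and 8.75 ± 0.745 CPM (shARID1A.4). High levels were thus seen with shARID1B.3 and with the combination that carries its number, and not with shARID1B.2. At the CCND1 exon 3 site the level was also highest with shARID1B.3, at 22.9, 21.2 and 19.7 CPM against 13.8, 16.4 and 14.8 with shARID1B.2 (0.51, SE 0.10, FDR 1.2e-04), yet the combination with that number stood at 12.9 CPM.

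**Figure D4:**
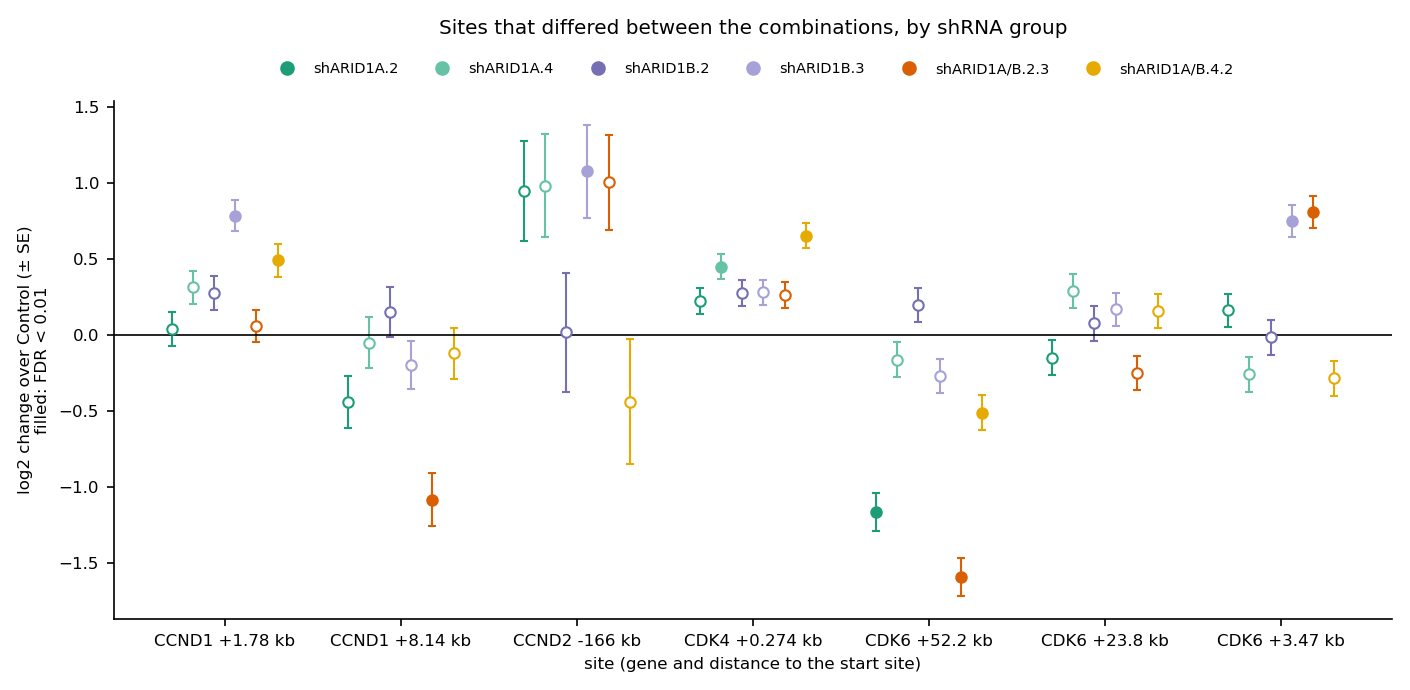
Log2 change over Control (vertical axis, ± SE, filled where FDR is under 0.01) in each of the 6 silenced groups at the 7 sites that differed between the combinations. At the CDK6 site at 52.2 kb, shARID1A.2 (-1.17) and shARID1A/B.2.3 (-1.59) are lowest, and at the CDK6 site at 3.47 kb, shARID1B.3 (0.75) and shARID1A/B.2.3 (0.81) are highest.

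With the shRNAs of a gene averaged, ARID1A silencing closed 1 member site and opened 4 (5.37% and 1.67% of all tested sites). The closed one was the CDK6 site at 52.2 kb (-0.67, SE 0.10, FDR 2.3e-07), and the opened ones were the CCND1 site 3.35 kb upstream (0.41, SE 0.10, FDR 0.001), the CCND2 promoter (0.41, SE 0.09, FDR 0.0011), the CDK4 site (0.34, SE 0.07, FDR 5.3e-04) and the CDKN1B site at APOLD1 (0.26, SE 0.07, FDR 0.0087). By edgeR, ARID1B silencing closed 0 member sites (1 at an unadjusted p under 0.05, and 0 called by DESeq2) and opened 3 (3.53% and 1.39%). These were the CCND1 exon 3 site (0.53, SE 0.09, FDR 1.4e-05), the CDK4 site (0.28, SE 0.07, FDR 0.0075) and the CDK6 site at 3.47 kb (0.36, SE 0.10, FDR 0.0063). Scaled on promoter sites, ARID1A silencing closed 4 and opened 0 (4 at an unadjusted p under 0.05, against 4 opened by DESeq2), and ARID1B silencing closed 1 and opened 1. The rise at the CDK6 site averages a rise with shARID1B.3 and a value of -0.02 with shARID1B.2.

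Against the 4 single-shRNA groups, combined silencing gave 4 lower member sites and 1 higher (6.85% and 0.969% of all tested sites), and 5 and 0 when scaled on promoter sites (2 higher at an unadjusted p under 0.05, against 1 by DESeq2). Under that scaling 29800 of all 357029 tested sites were lower and 1166 higher. With TMM, the 4 lower members were the closed CDK6 intron 1 sites at 52.2 kb (-0.70, SE 0.08, FDR 5.3e-12), 42.6 kb (-0.69, SE 0.17, FDR 0.0015) and 55.9 kb (-0.57, SE 0.15, FDR 0.0042), and the CCND1 intron 4 site (-0.47, SE 0.11, FDR 6.2e-04). The higher one was the CDK6 site at 64.5 kb (0.23, SE 0.05, FDR 8.3e-04). At the promoters of CCND1 and CCND2 the difference from the single shRNAs was 0.06 (SE 0.07, FDR 0.6) and 0.05 (SE 0.06, FDR 0.7), neither of which was called.

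The same comparison was made at 24 other genes of the G1/S transition, among them E-type cyclins, E2F factors and their partners, and AMBRA1, which directs the breakdown of D-type cyclins. Of their 310 tested sites, 18 closed and 18 opened after combined silencing, against the 10.3% and 3.43% of all tested sites given above, with a median change of 0.12. Of all tested promoter-TSS sites 33.4% opened, and of all sites with a mean of 10 CPM or more 37.6%. Values at these genes are from TMM scaling alone, and other scalings are not given for them. CCNE1 opened at 3 of 20 tested sites, and its promoter rose by 0.72 (SE 0.09, FDR 1.7e-10), from 19.7 CPM in Control to 28.6 and 36.7 CPM with the combinations. AMBRA1 opened at 3 of 6, CDKN1C at 1 of 2 and CDKN2B at 1 of 8, the last 2 in their exon 1 (0.54 (SE 0.09, FDR 3.3e-07) and 0.43 (SE 0.08, FDR 7.0e-06)). E2F8 closed at 3 of 15 and TFDP2 at 3 of 31, and E2F7 closed at 5 and opened at 2 of 100. E2F6, a repressive member of its family, closed at 2 and opened at 2 of 17. An intergenic site near it fell by 1.92 on the log2 scale (SE 0.13, FDR 2.0e-22), from 7.24 CPM in Control to 1.86 and 2.01 CPM with the combinations, and its exon 1 site rose by 0.41 (SE 0.08, FDR 1.7e-05). At RBL2, a relative of RB1, 1 of 5 sites closed, an intergenic one upstream (-1.68, SE 0.19, FDR 3.3e-12).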

How the data were processed

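The authors aligned the ATAC-seq reads to GRCh38, per the labels, called 1 consensus set of sites over all libraries and deposited raw read counts per site and library, with a HOMER annotation of each site. For the aligner, peak caller and any shift of reads for Tn5, the sources used here give nothing. The deposited normalized counts and the columns of the authors' DESeq2 comparisons were not used. Distances are those to the TSS that the annotation assigns.

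Counts were tested with edgeR 4.0.16 (R 4.3.3), with TMM scaling, filterByExpr (minimum count 10), the quasi-likelihood test over all 21 libraries in 1 model without covariates, and Benjamini-Hochberg adjustment over 357029 sites. The method was tested on simulated data with few changed sites, as many raised as lowered, which does not test the scaling. The SE is the size of the log2 change divided by the square root of the F statistic. DESeq2 1.42.0, other scalings, no filter, a replicate block, FDR under 0.05, compared groups only and each library left out were alternatives. TMM takes most sites to be unchanged. Replicates of a group differed beyond counting noise (chi-square per degree of freedom 1.08 to 2.51), so each library counts as 1 replicate.

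The 10 genes and the lists of 24 other G1/S genes, 8 adrenergic markers and 6 markers of other lineages were chosen with earlier results of these data known. The rule for named sites took, for each gene, the site nearest the TSS and the one with the highest mean CPM, every CCND1 site, and, of sites called in the average and with each combination, up to 3 with the largest fall and 3 with the largest rise. Every other site was named after its values had been seen. Windows of 300 bases were read from GRCh38 at the middle of sites, and promoters from RefSeq (GRCh38.p14), which matched 8 of the 10 genes, without CCND1 and CCND2. The sequence of 1 further site is not reported here.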

Additional observations from a re-analysis of the deposited data

Results flagged for a closer look

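A direct test of the difference between shARID1A/B.2.3 and shARID1A/B.4.2 (edgeR, adjusted over all tested sites) called 7 of the 52 tested sites. With shARID1A/B.2.3, 5 were lower and 2 higher, against 3.79% and 1.43% of all tested sites. The log2 ratio of shARID1A/B.2.3 to shARID1A/B.4.2 was -1.08 at the CDK6 site 52.2 kb from the start, -0.40 at the CDK6 site at 23.8 kb and 1.09 at the CDK6 site at 3.47 kb. It was -0.96 in CCND1 intron 4, -0.43 in CCND1 exon 3, -0.39 at CDK4 and 1.44 at the CCND2 site 166 kb upstream. Of 16 alternatives run, 10 lost the call at the CDK6 site at 23.8 kb, 7 in CCND1 exon 3 and 2 at CDK4. The call was lost in 1 of 16 in CCND1 intron 4 and in 1 of 15 at the CCND2 site.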

How the results depend on the processing

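The counts of member sites called by edgeR moved by more than 1.5 times under these settings, and their causes were not tested. Counts over all tested sites also moved with the scaling, as given above for scaling on promoter sites. They are not given for an FDR under 0.05 or for fits with a library left out. With scaling to promoter sites, 9 closed and 1 opened after combined silencing, 2 opened with shARID1A/B.2.3, 9 closed and 1 opened with shARID1A/B.4.2, 4 closed and 0 opened with ARID1A silencing, 1 closed and 1 opened with ARID1B silencing, 0 were higher than with single shRNAs (2 at an unadjusted p under 0.05) and 2 were lower with shARID1A/B.2.3 than with shARID1A/B.4.2. Offsets trended on abundance gave 3 closed and 4 opened with shARID1A/B.4.2, 2 opened with ARID1A silencing and 2 lower between the combinations, and GC offsets gave 3 closed and 3 opened with shARID1A/B.4.2, 2 closed with ARID1A silencing and 1 closed with ARID1B silencing. Over all tested sites the abundance offsets gave 25186, 12558, 6101 and 9961 in that order, against 26324, 14171, 5972 and 13521 with TMM. The GC offsets gave 25130, 12333, 18738 and 13354, where TMM gave 26324, 14171, 19189 and 12618. DESeq2 gave 1 closed after combined silencing, 2 lower than with single shRNAs and 1 higher between the combinations. It called 30369, 20494 and 3208 sites in all in that order, of 367900, 282307 and 175316 tested. With total counts only, 8 opened with shARID1A/B.2.3, 5 with ARID1B silencing and 3 were higher than with single shRNAs. Of all 357029 tested sites, 15884, 5930 and 5780 did so, against 10172, 4973 and 3458 with TMM. An FDR under 0.05 gave 12 opened after combined silencing, 9 with shARID1A/B.2.3, 11 with shARID1A/B.4.2, 7 with ARID1A silencing, 6 with ARID1B silencing and 2 higher than with single shRNAs. Without the filter on low counts 5 opened with ARID1B silencing, and 12 sites closed after combined silencing when sites were assigned by gene body, a setting chosen after seeing the data. Without the filter 6137 of all 367900 sites opened with ARID1B silencing, against 4973 with it. The gene-body set holds 59 sites in CDK6 alone, so its count is not out of 52, and 10.3% of all tested sites closed. The CDK6 promoter site turned to -0.017 scaled on promoter sites and -0.12 with abundance-trended offsets. Leaving out 1 library at a time, the closed sites after combined silencing ranged from 1 (without Control replicate 1) to 5, with 2 without Control replicate 3 or shARID1A/B.4.2 replicate 1 and 3 without any shARID1A/B.2.3 library or shARID1A/B.4.2 replicate 2. For shARID1A/B.2.3, 3 (without Control replicate 1 or 3) to 5 closed and 3 to 7 opened (7 without its replicate 2), and for shARID1A/B.4.2, 0 (without its replicate 2, where 3 had an unadjusted p under 0.05) to 1 closed. ARID1A silencing opened 1 (without Control replicate 2) to 6, with 2 without Control replicate 3, and ARID1B silencing 1 (without Control replicate 3, shARID1B.2 replicate 3 or shARID1B.3 replicate 2) to 5 (without shARID1B.3 replicate 3). Against the single shRNAs 2 (without replicate 1 of either combination) to 5 were lower and 1 to 2 higher (2 without shARID1A.2 replicate 1), and between the combinations 2 (without shARID1A/B.2.3 replicate 2) to 5 were lower, with 3 without shARID1A/B.4.2 replicate 1 or 3, and 1 (without shARID1A/B.4.2 replicate 1) to 2 higher. With both libraries that stand apart left out, a setting chosen after seeing the data, ARID1A silencing opened 1, and the other counts stayed within 1.5 times. The replicate numbers were not taken as pairing the libraries, because 4 of 63 same-numbered pairs had deviations correlated over 0.1, although 13 of 21 libraries correlated best with their own number, a hint from the data. The highest r, 0.305, was that of Control replicate 2 with shARID1A/B.2.3 replicate 2. With the replicate block 5 sites opened with ARID1B silencing, and the other counts stayed within 1.5 times. Of all tested sites 6281 then opened with ARID1B silencing, against 4973 without the block. The calls at the CDK6 site at 52.2 kb and at CDK4 after combined silencing, and those at the CDK6 sites at 52.2 and 3.47 kb between the combinations, held under every alternative run for them, apart from assignment by gene body, which alters no fit. Depth limits sites near 1 CPM, as with most of CCND2, where a call needed a large change.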
